A study of Arabidopsis thaliana with 8 samples.

Results

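The wild-type response to 4 h of the bacterial peptide flg22 was described across all loci by comparing the 2 WT 4 h libraries with the 2 WT 0 h libraries, which are 4 of the 8 libraries of the series. Both groups were whole Arabidopsis thaliana seedlings, 14 days old and of the Landsberg erecta background, grown on GM medium, carrying the wild-type genotype and treated with 0.1 µM flg22 for 4 h or for 0 h. Each group held 2 biological replicates, named here by the run numbers 910 and 918 in their titles. The other 4 libraries came from the smn2 mutant at the same times and entered the fit for its estimate of the spread. Of 28642 loci in the table, 19649 had enough reads to be tested. A mock-treated group at 4 h was not analysed here, so flg22, time of day and handling cannot be told apart in any value below.

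In plants, flg22, a fragment of bacterial flagellin, is sensed by the receptor kinase FLS2, which works with the co-receptor BAK1. Within minutes this gives calcium influx, an oxidative burst and MAP kinase activity, and transcription is then reset over hours. The standard markers of this response are kinases, WRKY factors and camalexin genes. Described here in more depth are the supply of phosphate, sulfur and nitrogen, water channels and abscisic acid, ribosome assembly, respiration, specialised metabolism and tandem gene arrays.

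The WT 4 h libraries held 9729245 (run 910) and 8635658 (run 918) gene reads, and the WT 0 h libraries 15791296 (run 910) and 10926158 (run 918). Ribosomal RNA and organelle loci took 37.8% and 47.6% of these reads at 4 h, against 30.5% and 44.0% at 0 h. Levels are given in CPM, counts scaled to a common library size over tested loci, with run 910 before run 918, and each log2 change (WT 4 h over WT 0 h) carries its standard error (SE). A gene was called at an adjusted p under 0.05 in the quasi-likelihood test of edgeR, Benjamini-Hochberg adjusted over all loci tested. CPM does not correct for gene length, so levels are compared within a gene only. Unless values without a library are given, each gene named with its level in all 4 libraries and called kept that call, and its change moved by no more than 1.5-fold, when any 1 WT library was left out. Counts of calls without 1 library are given in the order WT 4 h run 910, WT 4 h run 918, WT 0 h run 910, WT 0 h run 918.

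At 4 h, 1989 loci (10.1% of those tested) were called higher and 1289 (6.56%) lower. The median log2 change was 1.41 among the loci called higher, -1.44 among those called lower and -0.01 over all loci tested. Changes of at least 4-fold were found for 541 of the higher and 327 of the lower loci, and changes of at least 16-fold for 117 and 38. All 3278 called loci had groups that did not overlap and the same sign in both runs, while 59.4% of all loci tested also had groups that did not overlap. Leaving out 1 library left 1107, 1103, 884 and 1252 loci higher and 593, 468, 494 and 839 lower, and no called locus changed direction.

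**Figure D1:**
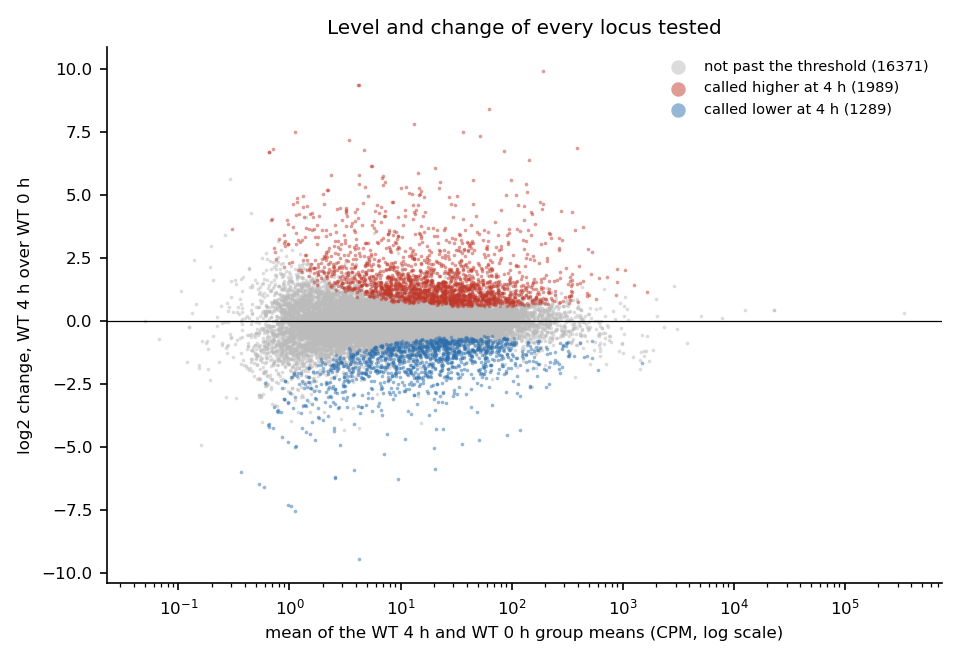
Each point is 1 of 19649 loci, with the mean of the WT 4 h and WT 0 h group means in CPM on a log axis and the log2 change, WT 4 h over WT 0 h, on the vertical axis. The 1989 loci called higher and the 1289 called lower span low to high levels, and the median over all 19649 loci is -0.01.

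Gene lists separated into those that rose, those that fell and those that split. Among the lists drawn, the largest shares of higher calls were in the tryptophan list, where 8 of 10 members tested rose, and in the camalexin and indole glucosinolate list, where 14 of 19 rose and 1 fell. The phosphate list, with 12 of 23 tested called lower, and the polyketide cyclase list, with 16 of 29 called lower, stood at the other end. The sulfate list split, with 9 higher and 8 lower of 31. These shares are to be read against 10.1% higher and 6.56% lower over all loci.

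**Figure D2:**
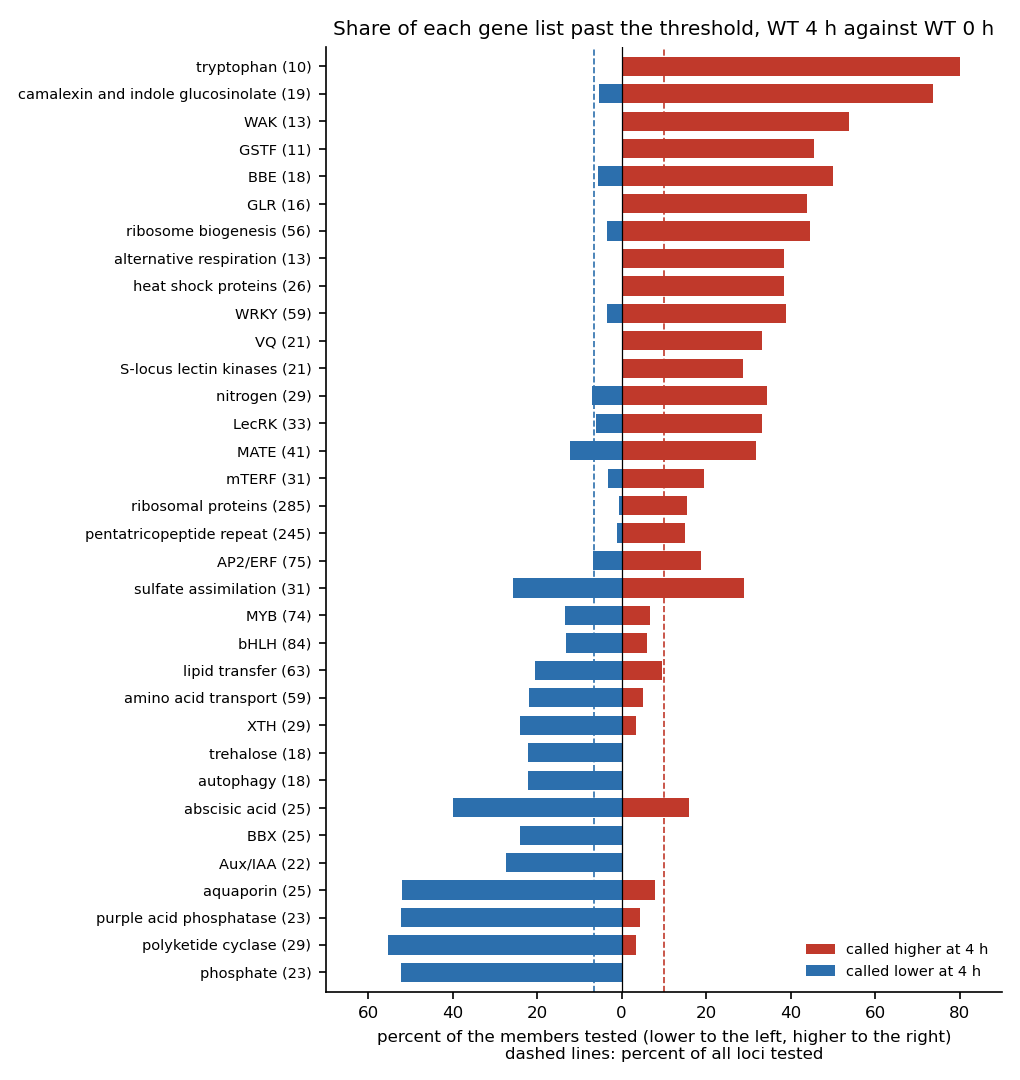
Bars show the percent of the tested members of each gene list called higher (right) or lower (left) at WT 4 h against WT 0 h, with the number tested in brackets, and dashed lines mark the 10.1% and 6.56% of all loci tested. Indole metabolism, wall-associated kinases and ribosome biogenesis extend to the right, and phosphate, polyketide cyclase, aquaporin and abscisic acid lists extend to the left.

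The phosphate list held the genes by which Arabidopsis takes up phosphate, senses its supply through SPX proteins and replaces phospholipids by galactolipids and sulfolipids. Of 23 members tested, 12 fell and none rose, with a median log2 change of -1.02. Their summed level was 1012 and 1228 CPM at 4 h, against 2426 and 1733 CPM at 0 h. With 1 library left out, 7, 6, 5 and 10 members were lower. SPX3, an inhibitor of the phosphate starvation regulator PHR1, had 0.944 and 0.794 CPM at 4 h, against 11.6 and 8.99 CPM at 0 h (log2 change -3.54 ± 0.43 SE, edgeR adjusted p = 0.000887). Both 4 h libraries lay below both 0 h libraries, as in every locus called lower. SQD2 (chr5:86585-89986), which completes sulfolipid synthesis, had 46.3 and 69.3 CPM at 4 h, against 440 and 271 CPM at 0 h (-2.62 ± 0.44 SE, adjusted p = 0.0039). MGD2, a galactolipid synthase of phosphate-starved tissue, had 3.25 and 5.42 CPM at 4 h, against 53.2 and 25.1 CPM at 0 h (-3.19 ± 0.53 SE, adjusted p = 0.00364), and its change was -2.54 without the WT 0 h library of run 910. PAP17, a purple acid phosphatase, had 35.1 and 37.0 CPM at 4 h, against 147 and 137 CPM at 0 h (-1.98 ± 0.21 SE, adjusted p = 0.000498), with a neighbouring locus that overlaps it. PHO2 (chr2:14277558-14283040) works against this list's name, since it encodes a ubiquitin-conjugating enzyme that limits phosphate uptake and is itself repressed under phosphate starvation. It fell as well, with 134 and 122 CPM at 4 h, against 396 and 342 CPM at 0 h (-1.52 ± 0.21 SE, adjusted p = 0.00173). Members that did not pass the test were the starvation-induced non-coding RNA IPS1, whose groups overlapped at 35.6 and 65.6 CPM against 230 and 55.0 CPM, the transporter PHT1;1 (-0.17 ± 0.31 SE), the exporter PHO1 (-0.25 ± 0.22 SE) and PHR1 (0.50 ± 0.19 SE).

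The wider family of purple acid phosphatases, which release phosphate from organic esters inside and outside the cell, also gave mostly lower calls. PAP17, described above, is counted both in this family and in the phosphate list. Of 23 members of the family tested, 12 fell and PAP29 rose, with a median of -1.33. Without 1 library, 5, 5, 5 and 11 were lower. PAP22 had 1.36 and 1.06 CPM at 4 h, against 8.11 and 9.78 CPM at 0 h (-2.85 ± 0.42 SE, adjusted p = 0.002). PAP24 had 0.21 and 0 CPM at 4 h, against 11.6 and 3.36 CPM at 0 h (-5.89 ± 0.91 SE, adjusted p = 0.00264). Its size depended on single libraries and was -9.27, -5.10, -4.70 and -6.50 with each left out in turn, past the threshold each time. PAP14 had 0.315 and 3.97 CPM at 4 h, against 53.5 and 24.9 CPM at 0 h (-4.27 ± 1.08 SE, adjusted p = 0.0255). That call was lost without the WT 4 h library of run 910 (-3.32, edgeR adjusted p = 0.139) and without the WT 0 h library of run 910 (-3.60, adjusted p = 0.109), and the change was -6.91 without the WT 4 h library of run 918. DESeq2 did not call it either. PAP29, the member that rose, had 7.45 and 5.56 CPM at 4 h, against 2.36 and 2.47 CPM at 0 h (1.43 ± 0.32 SE, adjusted p = 0.0156). It was lost without the WT 4 h library of run 910 (1.18, edgeR adjusted p = 0.112), the WT 0 h library of run 910 (1.40, adjusted p = 0.104) or the WT 0 h library of run 918 (1.46, adjusted p = 0.0635).

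PHR1 is known to bind an 8-base element, P1BS, written GNATATNC. The 250 bases upstream of each RefSeq gene start (TAIR10.1) were searched for it on both strands. It was found upstream of 1072 of 19497 loci tested with a promoter (5.5%), 134 of 1285 called lower (10.4%), 117 of 1985 called higher (5.89%), 4 of the 23 phosphate genes tested (17.4%) and 2 of the 12 that fell (16.7%). The last 2 are SPX3 (chr2:18606160-18606409, plus strand) and MGD2 (chr5:6896213-6896462, plus strand), chosen after their values were seen and shown for their matches, in capitals. A match describes letters of the reference genome in this window, not the sequence of the Landsberg erecta plants, and no binding.
SPX3: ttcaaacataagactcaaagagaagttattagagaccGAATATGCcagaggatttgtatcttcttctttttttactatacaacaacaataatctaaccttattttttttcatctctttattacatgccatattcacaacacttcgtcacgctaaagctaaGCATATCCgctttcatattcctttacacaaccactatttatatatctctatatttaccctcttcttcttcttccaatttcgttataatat
MGD2: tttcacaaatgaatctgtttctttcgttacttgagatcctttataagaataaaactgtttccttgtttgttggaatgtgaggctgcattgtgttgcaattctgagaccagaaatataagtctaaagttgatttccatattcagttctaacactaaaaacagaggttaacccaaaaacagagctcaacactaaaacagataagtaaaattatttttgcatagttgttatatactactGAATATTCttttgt

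Sulfur genes were called in both directions. Sulfate is taken up by SULTR transporters, activated by APS sulfurylases, reduced to sulfide, built into cysteine through O-acetylserine and stored as glutathione, while APS kinases divert it to sulfated compounds such as glucosinolates. Of 31 members tested, 9 rose and 8 fell, with a median of -0.15. With 1 library left out, 4, 6, 3 and 5 were higher and 3, 5, 4 and 8 lower. The members that fell were 4 sulfate transporters, the low-sulfur genes LSU1, LSU2 and SDI1, and the serine acetyltransferase SERAT3;2. SULTR4;2 (chr3:3967816-3971927), which releases sulfate from the vacuole, had 3.57 and 3.04 CPM at 4 h, against 45.2 and 29.9 CPM at 0 h (-3.50 ± 0.29 SE, adjusted p = 0.000169), and overlaps another locus. LSU2, a small protein of the low-sulfur response, had 5.98 and 6.22 CPM at 4 h, against 44.8 and 39.4 CPM at 0 h (-2.79 ± 0.33 SE, adjusted p = 0.00078). SULTR2;1, a vascular sulfate transporter named after its values were seen, had 30.9 and 27.7 CPM at 4 h, against 91.7 and 105 CPM at 0 h (-1.75 ± 0.20 SE), past the threshold.

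The members that rose were enzymes. Serine acetyltransferases were called in both directions, since SERAT3;2 fell and SERAT2;1, named after its values were seen, rose (log2 change 1.37). The SERAT2;1 call was lost without the WT 4 h library of run 910 and without either WT 0 h library. Its change ranged from 1.03 to 1.63 with each WT library left out. APK2, a kinase of the branch to sulfated compounds, had 264 and 174 CPM at 4 h, against 13.3 and 22.9 CPM at 0 h (3.60 ± 0.32 SE, adjusted p = 0.000251). Its paralog APK1 had 118 and 75.0 CPM at 4 h, against 35.1 and 33.7 CPM at 0 h (1.49 ± 0.27 SE, adjusted p = 0.00586). GSH2, glutathione synthetase, rose by 1.58 ± 0.23 (SE, adjusted p = 0.00218) without overlap of the groups. All 3 genes were higher in both 4 h libraries than in either 0 h library, as was every locus called higher. The reductases APR1, APR2 and APR3 did not pass the test, at 0.29 ± 0.25, -0.31 ± 0.28 and 0.38 ± 0.24 (SE).

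A group of 6 Arabidopsis genes known to follow the level of O-acetylserine, a signal of sulfur shortage, was added after the values were seen. SHM7, a serine hydroxymethyltransferase, had 25.2 and 15.9 CPM at 4 h, against 91.7 and 66.1 CPM at 0 h (-1.94 ± 0.28 SE, adjusted p = 0.0018). AT1G04770, a paralog of SDI1, had 19.9 and 17.9 CPM at 4 h, against 50.5 and 54.2 CPM at 0 h (-1.47 ± 0.18 SE, adjusted p = 0.000905). SDI1, which represses aliphatic glucosinolate genes when sulfur is short, had 2.41 and 2.38 CPM at 4 h, against 66.3 and 26.4 CPM at 0 h (-4.27 ± 0.79 SE, adjusted p = 0.00623). Without the WT 4 h library of run 910 or that of run 918 it was just beyond the threshold (edgeR adjusted p = 0.0591 and 0.0597), and without the WT 0 h library of run 910 its change was -3.45. Of the other 3, APR3 did not pass. LSU1 changed by -2.12 ± 0.52 (SE, adjusted p = 0.0214), a call lost without either WT 4 h library or the WT 0 h library of run 910 (edgeR adjusted p = 0.138, 0.0846 and 0.136). AT5G26220, of the ChaC family of glutathione-degrading cyclotransferases, changed by -2.65 ± 0.50 (SE, adjusted p = 0.00665), a call lost without the WT 4 h library of run 910 (-2.35, edgeR adjusted p = 0.0623). Without 1 library, 2, 3, 4 and 5 of the 6 were lower. BGLU28, a glucosidase known to break down glucosinolates under low sulfur and 1 of the 10 largest decreases, had 0.524 and 0.794 CPM at 4 h, against 16.9 and 11.9 CPM at 0 h (-4.46 ± 0.66 SE, adjusted p = 0.00221).

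**Figure D3:**
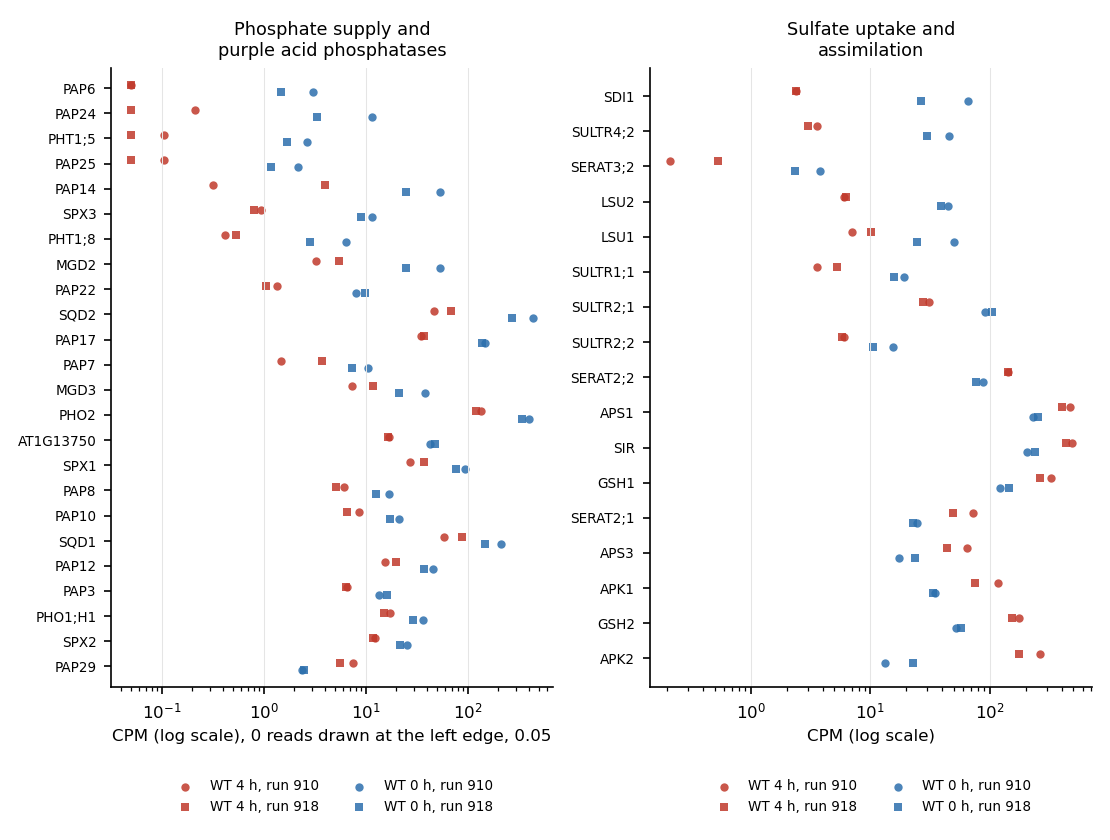
Levels in CPM on log axes of the called members of the phosphate and purple acid phosphatase lists (left) and of the sulfate list (right), with WT 4 h in red above WT 0 h in blue, circles for run 910 and squares for run 918. On the left every gene but PAP29 is lower in both 4 h libraries, and on the right SDI1 to SULTR2;2 are lower and SERAT2;2 to APK2 higher.

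Nitrogen genes rose more often than they fell, with 10 of 29 tested higher and 2 lower, and 7, 6, 5 and 8 higher with 1 library left out. NIA2, the main nitrate reductase of seedlings, had 1130 and 1097 CPM at 4 h, against 324 and 339 CPM at 0 h (1.75 ± 0.24 SE, adjusted p = 0.0014). WR3, also called NRT3.1 and a partner protein of high-affinity nitrate uptake, had 36.5 and 35.6 CPM at 4 h, against 7.3 and 6.62 CPM at 0 h (2.37 ± 0.36 SE, adjusted p = 0.00235). NRT1.8, which takes nitrate back from the xylem, had 10.7 and 15.7 CPM at 4 h, against 1.77 and 1.68 CPM at 0 h (2.92 ± 0.35 SE, adjusted p = 0.00078), and overlaps another locus. The 2 asparagine synthetases named by the rule moved apart. ASN2 had 225 and 192 CPM at 4 h, against 66.7 and 56.6 CPM at 0 h (1.76 ± 0.25 SE, adjusted p = 0.00182). ASN1, the isoform of darkness and sugar shortage, had 7.34 and 2.65 CPM at 4 h, against 35.7 and 37.5 CPM at 0 h (-2.84 ± 0.59 SE, adjusted p = 0.0107), with a change of -3.80 without the WT 4 h library of run 910 and a lost call without that of run 918 (-2.31, edgeR adjusted p = 0.0832).

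Aquaporins, the membrane channels for water and small solutes, gave mostly lower calls. Of 25 tested, 13 fell and 2 rose, with a median of -1.21, and 6, 10, 7 and 12 were lower with 1 library left out. The 2 higher calls were NIP2;1 and NIP5;1 (1.1 ± 0.33 SE, adjusted p = 0.049), and NIP5;1, a boron channel, lost its call without any 1 of 3 libraries, the WT 4 h library of run 918 (0.47, edgeR adjusted p = 0.372), the WT 0 h library of run 910 (1.17, 0.155) and that of run 918 (1.04, 0.162). The summed level of the family was 1117 and 1168 CPM at 4 h, against 3448 and 2501 CPM at 0 h. In these bulk seedlings, fewer cells of a type and less RNA per cell cannot be told apart. PIP2A, a plasma membrane channel, had 47.3 and 76.5 CPM at 4 h, against 310 and 242 CPM at 0 h (-2.16 ± 0.29 SE, adjusted p = 0.00139). TIP2, a channel of the vacuole membrane, had 296 and 204 CPM at 4 h, against 1150 and 762 CPM at 0 h (-1.93 ± 0.30 SE, adjusted p = 0.00268). The plasma membrane channels PIP1C and PIP3, named after their values were seen, changed by -1.75 ± 0.21 and -1.37 ± 0.20 (SE). In the NIP subfamily the direction differed between members. NIP1;1 had 1.78 and 3.31 CPM at 4 h, against 14.2 and 11.5 CPM at 0 h (-2.36 ± 0.35 SE, adjusted p = 0.00226). NIP2;1 (chr2:14514487-14515915), a channel known to rise under low oxygen and to carry lactic acid, had 76.3 and 81.4 CPM at 4 h, against 8.11 and 9.28 CPM at 0 h (3.18 ± 0.35 SE, adjusted p = 0.000539). It overlaps another locus.

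Root markers bear on this family, since several of these channels are abundant in roots. Of 12 root markers, 10 were tested and 1, COBL9, fell (-1.48 ± 0.44 SE, adjusted p = 0.0479), while WOX5 and MYB66 had too few reads. The COBL9 call was lost without either WT 4 h library (edgeR adjusted p = 0.212 and 0.141) and without the WT 0 h library of run 910 (0.31). Of the 10 markers, 9 had a negative log2 change, with a median of -0.74, beside medians of -1.21 for the aquaporins and -1.02 for the phosphate list. The phosphate transporter PHT1;1 is in both the root marker and the phosphate list. The summed level of the root markers was 150 and 166 CPM at 4 h, against 247 and 163 CPM at 0 h, so the groups overlapped between 4 h run 918 and 0 h run 918. The part of organ proportions in the aquaporin and phosphate values was not tested.

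Abscisic acid, the hormone of water shortage, is made from carotenoids by ABA1 and NCED3, bound by PYR/PYL receptors that block PP2C phosphatases, and acts through ABF factors. Of 25 members tested, 10 fell and 4 rose, with a median of -1.07. With 1 library left out, 5, 2, 7 and 5 were lower and 4, 3, 4 and 5 higher. The 4 that rose were 3 receptors and an enzyme of breakdown. PYL6 had 56.8 and 51.6 CPM at 4 h, against 1.77 and 2.67 CPM at 0 h (4.64 ± 0.31 SE, adjusted p = 6.66e-05). PYL5 had 67.4 and 131 CPM at 4 h, against 16.4 and 17.4 CPM at 0 h (2.55 ± 0.34 SE, adjusted p = 0.00133). CYP707A3, an 8′-hydroxylase that inactivates the hormone, had 28.4 and 27.1 CPM at 4 h, against 8.54 and 7.21 CPM at 0 h (1.81 ± 0.25 SE, adjusted p = 0.00158). PYL4 was the third receptor, at 1.39 ± 0.27 (SE, adjusted p = 0.00819), and 1.32 with an edgeR adjusted p = 0.0531 without the WT 4 h library of run 918.

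The 10 that fell were the synthesis genes ABA1 and NCED3, the receptor RCAR1, the PP2C phosphatases HAI1, HAI2, HAB1, HAB2 and AHG3, the factor ABF3 and the dehydrin RAB18. Receptors were thus called in both directions. RCAR1 had 6.71 and 6.09 CPM at 4 h, against 16.3 and 13.6 CPM at 0 h (-1.23 ± 0.23 SE, adjusted p = 0.00654), a call lost without the WT 4 h library of run 918 (-1.16, edgeR adjusted p = 0.0527) or the WT 0 h library of run 910 (-1.09, adjusted p = 0.0571). ABF3, a bZIP factor of the response, had 8.71 and 9.79 CPM at 4 h, against 43.8 and 42.6 CPM at 0 h (-2.22 ± 0.21 SE, adjusted p = 0.000323). AHG3, a PP2C phosphatase known to be induced by the hormone, had 10.6 and 12.2 CPM at 4 h, against 39.4 and 45.7 CPM at 0 h (-1.90 ± 0.24 SE, adjusted p = 0.000986). Neither gene's groups overlapped, as in every called locus. Among the other PP2C genes, HAB2 changed by -0.76 and lost its call whichever WT library was left out. HAI2 changed by -3.36 and kept its call only without the WT 0 h library of run 910. The change of HAI2 ranged from -4.08 to -2.04 with each WT library left out. NCED3, which makes the rate-limiting cut, had 3.04 and 2.65 CPM at 4 h, against 12.9 and 19.1 CPM at 0 h (-2.47 ± 0.46 SE, adjusted p = 0.0065), and lost the call without the WT 4 h library of run 918 (-2.38, edgeR adjusted p = 0.0579). RAB18, a dehydrin used as a marker of the hormone, had 4.51 and 4.23 CPM at 4 h, against 11.1 and 24.7 CPM at 0 h (-2.02 ± 0.54 SE, adjusted p = 0.0333). Its call was lost without either WT 4 h library (edgeR adjusted p = 0.141 and 0.161) and without the WT 0 h library of run 918 (-1.34, adjusted p = 0.166). The marker RD29A did not pass, with 124 and 69.5 CPM at 4 h, against 41.1 and 430 CPM at 0 h, so its 0 h libraries differed from each other more than the groups did. Outside the list, the homeodomain genes HB-7 (AT2G46680) and HB-12, both known as targets of the hormone in water shortage, fell. HB-7 (AT2G46680) had 7.76 and 8.2 CPM at 4 h, against 55.0 and 49.6 CPM at 0 h (-2.71 ± 0.20 SE, adjusted p = 0.000106). HB-12 had 2.2 and 2.12 CPM at 4 h, against 18.5 and 11.7 CPM at 0 h (-2.80 ± 0.36 SE, adjusted p = 0.0011).

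The ABA-responsive element bound by ABF factors was searched as ACGTGG or ACGTGT, on both strands, in the same upstream 250 bases of the reference genome. It was present at 3319 of 19497 loci tested (17.0%), 310 of 1285 called lower (24.1%), 316 of 1985 called higher (15.9%), 12 of the 25 abscisic acid genes tested (48.0%) and 7 of the 10 that fell (70.0%). ABF3 (chr4:16295084-16295333, plus strand) and RAB18 (chr5:26519448-26519697, minus strand) are shown as a regulator and a marker gene with matches in capitals, chosen after their values were seen.
ABF3: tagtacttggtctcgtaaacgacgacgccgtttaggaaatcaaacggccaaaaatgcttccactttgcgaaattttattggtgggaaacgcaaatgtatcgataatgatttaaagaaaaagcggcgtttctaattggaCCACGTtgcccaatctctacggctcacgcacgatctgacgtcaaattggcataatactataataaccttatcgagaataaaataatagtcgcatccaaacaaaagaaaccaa
RAB18: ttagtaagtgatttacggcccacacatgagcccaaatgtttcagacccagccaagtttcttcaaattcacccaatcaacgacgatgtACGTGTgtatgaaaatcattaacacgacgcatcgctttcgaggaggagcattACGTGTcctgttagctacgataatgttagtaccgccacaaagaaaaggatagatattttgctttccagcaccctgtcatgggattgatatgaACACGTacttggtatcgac

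**Figure D4:**
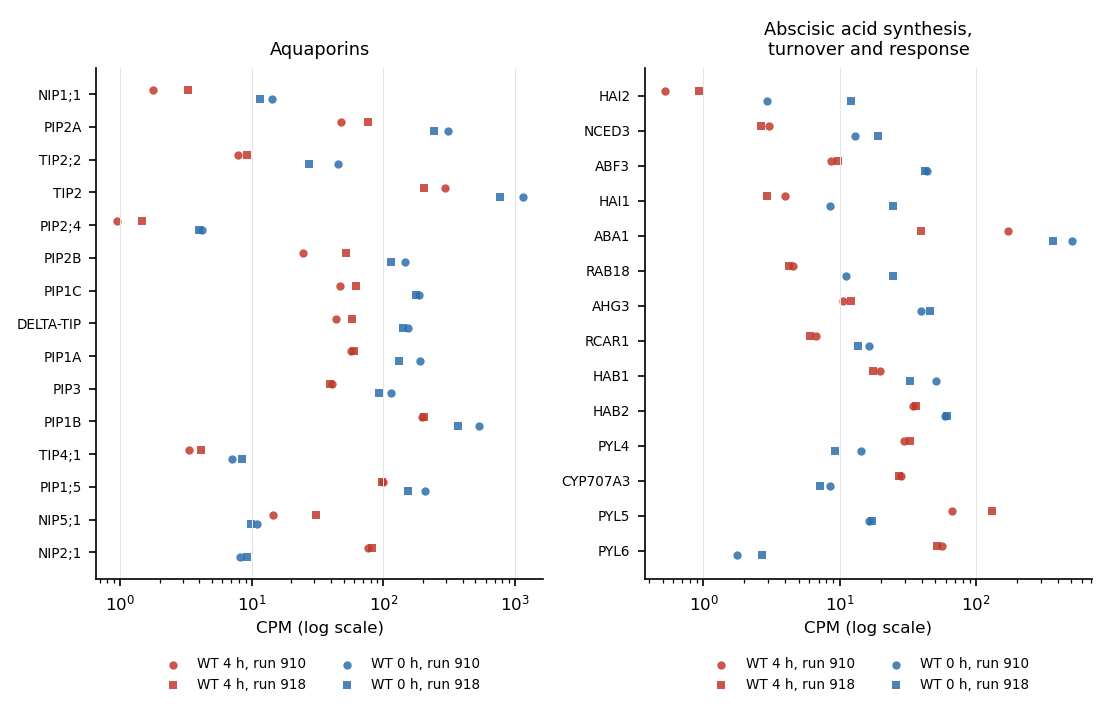
Levels in CPM on log axes of the called aquaporins (left) and abscisic acid genes (right), with WT 4 h in red above WT 0 h in blue, circles for run 910 and squares for run 918. The 13 aquaporins that fell and the 10 abscisic acid genes that fell lie above NIP5;1, NIP2;1 and the 4 abscisic acid genes that rose.

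Proline and polyamine genes gave 2 higher and 2 lower calls of 12 tested, the same counts with any 1 library left out. P5CS1, which makes proline under water shortage, had 32.5 and 22.0 CPM at 4 h, against 167 and 224 CPM at 0 h (-2.84 ± 0.26 SE, adjusted p = 0.000291). SPDS3, named a spermidine synthase in the gene table, had 6.4 and 5.42 CPM at 4 h, against 24.8 and 19.8 CPM at 0 h (-1.91 ± 0.28 SE, adjusted p = 0.00212). Both overlap another locus. The arginine decarboxylases, which make agmatine, rose. ADC2 had 1626 and 1736 CPM at 4 h, against 487 and 332 CPM at 0 h (2.04 ± 0.31 SE, adjusted p = 0.00226), and ADC1 had 250 and 238 CPM at 4 h, against 73.0 and 79.2 CPM at 0 h (1.68 ± 0.20 SE, adjusted p = 0.000825).

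In Arabidopsis, agmatine is joined to coumaric acid by the acyltransferase ACT (AT5G61160) and exported by the MATE carrier DTX18 (AT3G23550), giving antimicrobial amides. AT5G61160 (chr5:24608724-24610304) was 1 of the 10 largest increases, with 134 and 72.8 CPM at 4 h, against 0.268 and 1.19 CPM at 0 h (7.34 ± 0.79 SE, adjusted p = 0.00047). The low 0 h counts set its size, which was 6.43 without the WT 0 h library of run 910 and 8.52 without that of run 918. AT3G23550 (chr3:8448273-8450697) had 336 and 200 CPM at 4 h, against 6.98 and 8.3 CPM at 0 h (5.14 ± 0.86 SE, adjusted p = 0.00384). The adjacent steps of glutamate metabolism included GAD4 (chr2:474165-476594), a glutamate decarboxylase that makes GABA, with 196 and 230 CPM at 4 h, against 5.85 and 7.21 CPM at 0 h (5.03 ± 0.29 SE, adjusted p = 5.73e-05).

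Carriers of amino acids fell more often than they rose, with 13 lower and 3 higher of 59 tested and a median of -0.42. With 1 library left out, 5, 6, 4 and 9 were lower. LHT1, the high-affinity carrier that recovers amino acids from the cell wall space, was 1 of the 3 that rose, with 74.9 and 92.9 CPM at 4 h, against 17.0 and 18.7 CPM at 0 h (2.24 ± 0.27 SE, adjusted p = 0.000925). Sugar carriers gave 5 higher and 4 lower calls of 24, and 3, 3, 2 and 4 higher and 3, 2, 2 and 3 lower with 1 library left out. SUC1, a sucrose-proton symporter, had 136 and 128 CPM at 4 h, against 50.2 and 43.2 CPM at 0 h (1.5 ± 0.19 SE, adjusted p = 0.00107). ATSTP13, a hexose carrier known from defence, had 151 and 107 CPM at 4 h, against 8.43 and 25.0 CPM at 0 h (2.97 ± 0.54 SE, adjusted p = 0.00604), and its change was 2.37 without the WT 0 h library of run 910 and 3.94 without that of run 918. SWEET16, a vacuolar sugar channel, had 0.524 and 0.529 CPM at 4 h, against 4.62 and 3.65 CPM at 0 h (-2.95 ± 0.51 SE, adjusted p = 0.00434). Of 18 trehalose genes tested, 4 fell and none rose, and 4, 1, 3 and 4 fell with 1 library left out. All 4 were trehalose-phosphate synthase-like genes. TPS8 was the one with the largest change, with 55.9 and 28.2 CPM at 4 h, against 238 and 264 CPM at 0 h (-2.58 ± 0.41 SE, adjusted p = 0.00308), and -3.17 without the WT 4 h library of run 910.

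Many genes of ribosome assembly rose. Ribosomes are built in the nucleolus, where NOP56 and other proteins of small nucleolar particles modify ribosomal RNA and Brix-domain proteins process it. Of 56 such genes tested, chosen by their product names after values were seen, 25 rose and 2 fell, with a median of 0.70. Without 1 library, 13, 13, 12 and 13 were higher. Their summed level was 2302 and 2523 CPM at 4 h, against 1384 and 1615 CPM at 0 h. AT3G23620, a Brix-domain protein, had 55.0 and 74.6 CPM at 4 h, against 19.1 and 23.4 CPM at 0 h (1.61 ± 0.23 SE, adjusted p = 0.00194). AT1G52930, another Brix-domain protein, had 22.2 and 28.3 CPM at 4 h, against 7.14 and 10.3 CPM at 0 h (1.55 ± 0.25 SE, adjusted p = 0.00352). AT5G27120, a NOP56-like protein, had 98.9 and 88.9 CPM at 4 h, against 36.3 and 27.4 CPM at 0 h (1.56 ± 0.28 SE, adjusted p = 0.00524). NOP56 (AT1G56110), named after its values were seen, had 193 and 218 CPM at 4 h, against 84.8 and 70.8 CPM at 0 h (1.40 ± 0.20 SE, adjusted p = 0.00189). In each of the 4 genes both 4 h libraries stood above both 0 h libraries, as in every locus called higher. The fibrillarins FIB1 and FIB2, which methylate ribosomal RNA, did not pass the test, at log2 changes of 0.30 and 0.44, with 68.6% and 24.4% of their reads uniquely placed.

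Ribosomal proteins shifted by less and more evenly. Of 285 tested, 255 had a positive log2 change, 44 rose and 2 fell, with a median of 0.53 against -0.01 over all loci. The summed level was 16400 and 18828 CPM at 4 h, against 11630 and 13070 CPM at 0 h. The calls rested on small changes, since leaving out 1 library left 24, 6, 6 and 10 higher. RPSAb, a protein of the small cytosolic subunit, had 6.61 and 7.67 CPM at 4 h, against 2.31 and 1.98 CPM at 0 h (1.72 ± 0.28 SE, adjusted p = 0.00313). AT3G58660, in the L1p/L10e family, had 41.6 and 62.8 CPM at 4 h, against 17.1 and 14.8 CPM at 0 h (1.7 ± 0.26 SE, adjusted p = 0.00233). AT3G14595, in the L18ae family, fell, with 8.6 and 7.94 CPM at 4 h, against 19.2 and 23.0 CPM at 0 h (-1.34 ± 0.25 SE, adjusted p = 0.00601).

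Pentatricopeptide repeat proteins, which edit, splice and stabilise RNA in plastids and mitochondria, also shifted upwards. Of 245 tested, 212 had a positive log2 change, 37 rose and 3 fell, with a median of 0.66, and 12, 15, 12 and 15 were higher with 1 library left out. AT1G05670 had 29.7 and 32.2 CPM at 4 h, against 6.28 and 3.56 CPM at 0 h (2.62 ± 0.35 SE, adjusted p = 0.0014). AT3G29240, listed as a pentatricopeptide protein with a DUF179 domain, fell, with 30 and 31.2 CPM at 4 h, against 112 and 71.1 CPM at 0 h (-1.58 ± 0.25 SE, adjusted p = 0.00316). The mTERF family, which acts on organelle transcription, had 6 higher and 1 lower of 31, a median of 0.68 and 2, 1, 1 and 2 higher with 1 library left out. The proteasome had 28 genes tested, a median of 0.02 and no call, and tRNA synthetases had 4 higher and 1 lower of 43 with a median of 0.20, and 0, 1, 0 and 1 higher with 1 library left out. The share of tRNA synthetases called higher, 9.3%, stood beside 10.1% over all loci. Whether these lists differ from each other was not tested.

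**Figure D5:**
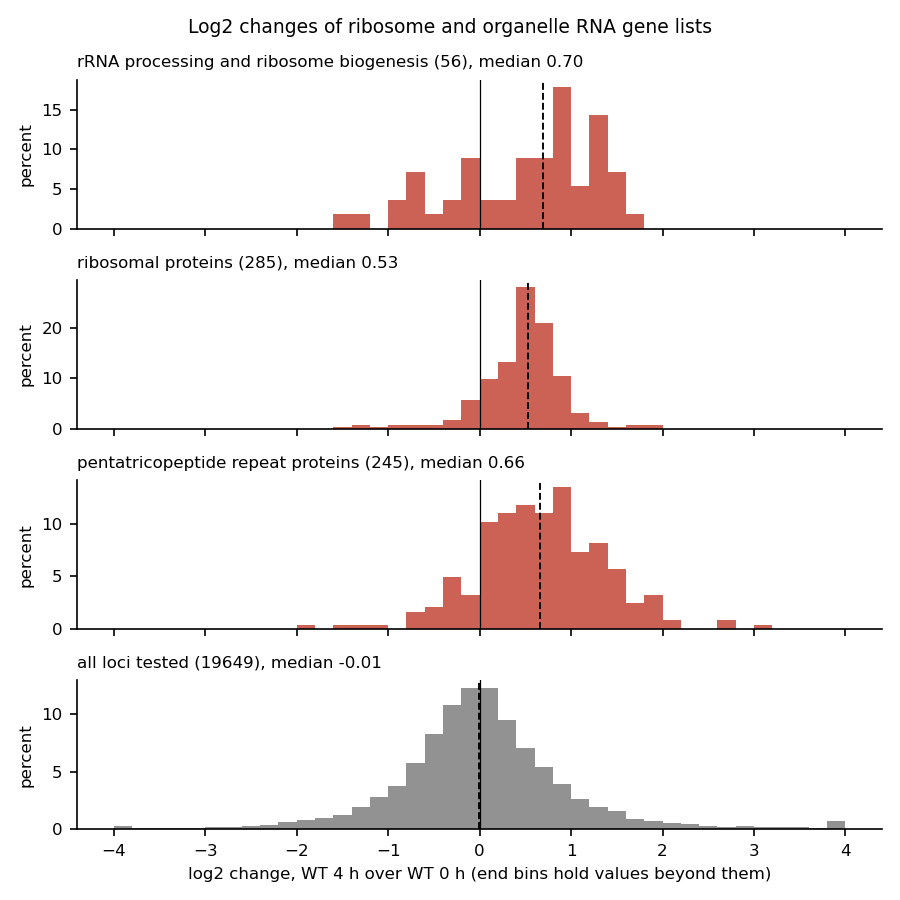
Histograms of the log2 change, WT 4 h over WT 0 h, as percent of each list, with a dashed line at the median. Ribosome biogenesis (56 genes, median 0.70), ribosomal proteins (285, 0.53) and pentatricopeptide repeat proteins (245, 0.66) lie to the right of all 19649 loci (-0.01).

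Some genes of the alternative respiratory pathway rose. In this pathway AOX oxidases pass electrons to oxygen without pumping protons. Of 13 genes tested, 5 rose and none fell, and 2, 3, 2 and 2 rose with 1 library left out. AOX1D had 81.6 and 94.7 CPM at 4 h, against 1.45 and 2.27 CPM at 0 h (5.61 ± 0.39 SE, adjusted p = 7.84e-05). Its better-known paralog AOX1A did not pass the test, at a log2 change of 1.12. BCS1 (AT3G50930), an ATPase of the outer mitochondrial membrane known as a stress marker, had 52.7 and 32.4 CPM at 4 h, against 10.6 and 12.9 CPM at 0 h (1.86 ± 0.29 SE, adjusted p = 0.00294). Of 36 mitochondrial carriers tested, 7 rose and 1 fell, and 4, 5, 4 and 5 rose and 0 fell with 1 library left out. AT5G15640 had 17.3 and 19.3 CPM at 4 h, against 4.72 and 5.63 CPM at 0 h (1.83 ± 0.23 SE, adjusted p = 0.00109).

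Glucose-6-phosphate dehydrogenase, which opens the oxidative pentose phosphate pathway and yields NADPH, showed a difference between its plastid isoforms. G6PD2 had 57.0 and 68.8 CPM at 4 h, against 20.4 and 18.5 CPM at 0 h (1.69 ± 0.19 SE, adjusted p = 0.000646). G6PD3 had 45.0 and 55.4 CPM at 4 h, against 12 and 14 CPM at 0 h (1.95 ± 0.26 SE, adjusted p = 0.00124), and overlaps another locus. G6PD1 had 23.2 and 23.0 CPM at 4 h, against 71.4 and 64.4 CPM at 0 h (-1.56 ± 0.18 SE, adjusted p = 0.000616). The cytosolic isoforms G6PD5 and G6PD6 did not pass the test, at -0.33 and 0.26.

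The thalianol gene cluster on chromosome 5, whose products are triterpenes made mainly in roots, had 4 of 5 genes tested called lower, in the full fit and without any 1 library. It was added after CYP705A5 was found among the 10 largest decreases. THAS1 (chr5:19456960-19461689), the synthase that forms thalianol, had 8.39 and 6.35 CPM at 4 h, against 109 and 69.8 CPM at 0 h (-3.59 ± 0.35 SE, adjusted p = 0.000323). CYP708A2 (chr5:19444138-19447850), a hydroxylase, had 6.4 and 12.3 CPM at 4 h, against 81.7 and 56.3 CPM at 0 h (-2.90 ± 0.34 SE, adjusted p = 0.00078). CYP705A5 (chr5:19434827-19436689), a desaturase, had 1.99 and 5.69 CPM at 4 h, against 121 and 75.2 CPM at 0 h (-4.71 ± 0.53 SE, adjusted p = 0.000614), with -4.12 without the WT 4 h library of run 910 and -5.61 without that of run 918. AT5G47980 (chr5:19428888-19430476), an acyltransferase, had 0.629 and 1.32 CPM at 4 h, against 15.4 and 9.78 CPM at 0 h (-3.72 ± 0.61 SE, adjusted p = 0.0036). All 4 were lower in both 4 h libraries than in either 0 h library, as was every locus called lower. A further acyltransferase, AT5G47950, did not pass (-1.82 ± 0.65 SE, adjusted p = 0.0889), nor did the neighbours AT5G47970 (0.48 ± 0.25 SE) and AT5G48020 (-0.24 ± 0.22 SE). Of the 10 root markers tested, 9 had a negative log2 change, with a median of -0.74, while their summed levels overlapped between the groups. Their part in this result was not tested.

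Several tandem arrays held genes that rose beside genes that fell, a pattern picked out after the values were seen. In the array of lipid-transfer-like genes around EARLI1 on chromosome 4, EARLI1 (chr4:7406105-7406937) had 74.0 and 54.5 CPM at 4 h, against 5.74 and 9.28 CPM at 0 h (3.12 ± 0.41 SE, adjusted p = 0.00126). AT4G12520 (chr4:7421056-7421738), further along the array, had 0.21 and 0.529 CPM at 4 h, against 19.2 and 8.39 CPM at 0 h (-5.25 ± 0.66 SE, adjusted p = 0.00105), and changed by -5.97 without the WT 4 h library of run 918 and by -4.51 without the WT 0 h library of run 910. Of its reads 51.6% were uniquely placed, so reads may be shared with AT4G12510. Between them, AT4G12490 and AT4G12500 rose (2.92 ± 0.57 and 3.54 ± 0.66 SE) and AT4G12510 fell (-6.20 ± 1.34 SE, with 42.1% of its reads uniquely placed). Each of these 3 lost its call without the WT 4 h library of run 910 (edgeR adjusted p = 0.0509, 0.0559 and 0.0739) and without the WT 0 h library of run 910 (0.0707, 0.0544 and 0.07), and AT4G12510 also without the WT 4 h library of run 918 (0.0912). EARLI1 and its close relatives are known for roles in systemic immunity.

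A second chromosome 4 array showed the same arrangement. AT4G22470 (chr4:11840134-11841450) had 23.2 and 16 CPM at 4 h, against 0.43 and 0.593 CPM at 0 h (5.28 ± 0.42 SE, adjusted p = 0.00013). AT4G22505 (chr4:11851228-11853018) had 8.81 and 3.04 CPM at 4 h, against 55.7 and 29.6 CPM at 0 h (-2.83 ± 0.60 SE, adjusted p = 0.0114). It changed by -3.83 without the WT 4 h library of run 910 and lost the call without that of run 918 (-2.28, edgeR adjusted p = 0.0865) and without the WT 0 h library of run 910 (-2.29, adjusted p = 0.065). Over the whole lipid-transfer list, 6 rose and 13 fell of 63 tested, with a median of -0.89, and 3, 4, 3 and 11 fell with 1 library left out.

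MATE carriers, which export organic compounds from the cytosol, also had an array of this kind. Of 41 tested, 13 rose and 5 fell, and 9, 10, 7 and 10 rose with 1 library left out. In the array on chromosome 2, DTX1 (chr2:1334512-1336489), known to extrude toxic alkaloids, had 87.6 and 85.1 CPM at 4 h, against 2.9 and 4.05 CPM at 0 h (4.66 ± 0.34 SE, adjusted p = 0.000103), and overlaps another locus. AT2G04070 (chr2:1353755-1355790) had 32.7 and 28.2 CPM at 4 h, against 6.71 and 4.25 CPM at 0 h (2.45 ± 0.39 SE, adjusted p = 0.00302). AT2G04100 (chr2:1376890-1379130) had 2.62 and 2.65 CPM at 4 h, against 11.0 and 9.58 CPM at 0 h (-1.97 ± 0.31 SE, adjusted p = 0.00285). FRD3, a MATE carrier that loads citrate into the xylem for iron transport, had 1.78 and 1.98 CPM at 4 h, against 8.27 and 8.89 CPM at 0 h (-2.18 ± 0.39 SE, adjusted p = 0.0053). Likewise, in the berberine bridge enzyme family, where 9 rose and 1 fell of 18, the member that fell, AT4G20820, had 5.45 and 8.2 CPM at 4 h, against 65.6 and 40.9 CPM at 0 h (-2.97 ± 0.30 SE, adjusted p = 0.000356). Its numbered neighbour AT4G20830, an oxidase of cell wall fragments, had 819 and 908 CPM at 4 h, against 91.9 and 140 CPM at 0 h (2.89 ± 0.36 SE, adjusted p = 0.000925).

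The polyketide cyclase and MLP-like family, proteins of the Bet v 1 fold, showed 16 lower and 1 higher of 29 tested, with a median of -1.20. Without 1 library, 9, 12, 9 and 12 were lower. The summed level was 1152 and 1367 CPM at 4 h, against 2511 and 2380 CPM at 0 h. AT4G23670 had 288 and 278 CPM at 4 h, against 823 and 719 CPM at 0 h (-1.45 ± 0.23 SE, adjusted p = 0.00276), and MLP43 had 13.2 and 20.2 CPM at 4 h, against 51.7 and 74.8 CPM at 0 h (-1.92 ± 0.29 SE, adjusted p = 0.00222), both named after their values were seen. The member that rose was the receptor PYL5, described above.

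Among ABC transporters, ABCG40, an importer of abscisic acid known also from defence, had 808 and 723 CPM at 4 h, against 5.32 and 7.8 CPM at 0 h (6.88 ± 0.54 SE, adjusted p = 0.00013). Of all ABCG genes tested, 10.8% were called higher and 10.8% lower, against 10.1% and 6.56% over all loci. Their higher share was thus near that of all loci. The other ABCG genes were divided, with 4 higher and 4 lower in all of 37 tested, and 2, 4, 3 and 3 higher and 0, 1, 0 and 3 lower with 1 library left out. In the ABCB subfamily 6 rose and 1 fell of 19, and 2, 5, 3 and 2 rose with 1 library left out. ABCB21, an auxin carrier, had 245 and 185 CPM at 4 h, against 55.1 and 38.4 CPM at 0 h (2.2 ± 0.27 SE, adjusted p = 0.000869). UDP-glycosyltransferases, which attach sugars to hormones and toxins, gave 24 higher and 9 lower of 109, and 16, 17, 15 and 18 higher and 3, 4, 3 and 7 lower with 1 library left out. UGT72E2, which glycosylates monolignols, had 5.14 and 9.53 CPM at 4 h, against 44.0 and 35.0 CPM at 0 h (-2.44 ± 0.29 SE, adjusted p = 0.000756). UGT74B1, of glucosinolate synthesis, had 210 and 153 CPM at 4 h, against 37.3 and 40.8 CPM at 0 h (2.21 ± 0.22 SE, adjusted p = 0.000324). UGT76E12 was among the 10 largest increases, but 1.84% of its reads were uniquely placed, so it cannot be told apart from near-identical copies. PP2-A5, a phloem lectin and also among the 10, had 35.5 and 45.8 CPM at 4 h, against 0.591 and 0.593 CPM at 0 h (6.07 ± 0.32 SE, adjusted p = 5.73e-05).

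Glutamate receptor-like channels, which carry calcium in wound and immune signals, had 7 higher and none lower of 16 tested, with a median of 1.05, and 4, 7, 4 and 6 higher with 1 library left out. ATGLR1.2 had 21.6 and 13.0 CPM at 4 h, against 2.26 and 2.27 CPM at 0 h (2.93 ± 0.39 SE, adjusted p = 0.00127). GLR1.3 had 10.9 and 10.7 CPM at 4 h, against 1.66 and 2.37 CPM at 0 h (2.45 ± 0.41 SE, adjusted p = 0.00368). Members known for the wound signal did not pass, with GLR3.3 at 0.08 and GLR3.6 at -0.90. S-locus lectin kinases had 6 higher and none lower of 21, and 4, 5, 4 and 7 with 1 library left out. AT1G61360 had 114 and 97.9 CPM at 4 h, against 13.0 and 13.9 CPM at 0 h (2.98 ± 0.20 SE, adjusted p = 6.66e-05), and its neighbour AT1G61370 had 23.4 and 19.8 CPM at 4 h, against 3.44 and 3.46 CPM at 0 h (2.65 ± 0.28 SE, adjusted p = 0.000445). VQ proteins, partners of WRKY factors, had 7 higher and none lower of 21, and 4, 5, 2 and 8 with 1 library left out. PDE337, a VQ gene, had 8.08 and 6.88 CPM at 4 h, against 1.5 and 0.889 CPM at 0 h (2.58 ± 0.36 SE, adjusted p = 0.00152).

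Transcription factor families gave different counts of higher and lower calls, to be read against 10.1% and 6.56% over all loci. For NAC factors the shares were 10.2% higher and 11.9% lower. WRKY factors, which bind W-boxes in defence genes, had 23 higher and 2 lower of 59 tested, and 10, 18, 11 and 17 higher with 1 library left out. WRKY40 had 70.1 and 73.6 CPM at 4 h, against 6.12 and 11.0 CPM at 0 h (3.09 ± 0.35 SE, adjusted p = 0.000646), and overlaps another locus. WRKY41 had 5.66 and 4.5 CPM at 4 h, against 0.0537 and 0.494 CPM at 0 h (4.45 ± 0.65 SE, adjusted p = 0.00198), and changed by 3.33 without the WT 0 h library of run 910 and by 6.27 without that of run 918. MYB factors had 5 higher and 10 lower of 74, and 2, 1, 3 and 5 lower with 1 library left out. NAC factors had 6 higher and 7 lower of 59, and 4, 4, 1 and 4 higher and 3, 0, 4 and 3 lower without 1 library. The bHLH family had 5 higher and 11 lower of 84, and 3 higher in each fit and 7, 9, 7 and 10 lower without 1 library. The bHLH calls included large changes both ways. AT1G10585 had 23.7 and 35.7 CPM at 4 h, against 0.698 and 0.988 CPM at 0 h (5.16 ± 0.35 SE, adjusted p = 6.66e-05). HFR1, a factor of light signalling, had 2.52 and 1.32 CPM at 4 h, against 13.5 and 14.0 CPM at 0 h (-2.80 ± 0.40 SE, adjusted p = 0.00177). B-box zinc finger genes, many of them known from light and clock control, had 6 lower and none higher of 25, and 4, 2, 2 and 4 lower and 0, 0, 0 and 3 higher with 1 library left out. DESeq2 called 10 lower and 1 higher, the 4 WT libraries alone 9 and 2, and the fit with no low-count filter 11 and 3. BBX14 had 71.2 and 67.1 CPM at 4 h, against 182 and 177 CPM at 0 h (-1.38 ± 0.25 SE, adjusted p = 0.00531), and BBX27 had 4.82 and 3.7 CPM at 4 h, against 26.3 and 35.5 CPM at 0 h (-2.84 ± 0.49 SE, adjusted p = 0.00451).

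The W-box was searched as TTGACC or TTGACT, on both strands, in the upstream 250 bases of the reference genome. It was present at 5573 of 19497 loci tested (28.6%), 779 of 1985 called higher (39.2%), 325 of 1285 called lower (25.3%), 22 of 59 WRKY genes tested (37.3%) and 13 of the 23 that rose (56.5%). Of the 4 WRKY genes with the largest increases (WRKY41, WRKY59, WRKY40 and ATWRKY63), WRKY41 (chr4:6758848-6759097, plus strand) had matches in this window, in capitals, and is shown for them.
WRKY41: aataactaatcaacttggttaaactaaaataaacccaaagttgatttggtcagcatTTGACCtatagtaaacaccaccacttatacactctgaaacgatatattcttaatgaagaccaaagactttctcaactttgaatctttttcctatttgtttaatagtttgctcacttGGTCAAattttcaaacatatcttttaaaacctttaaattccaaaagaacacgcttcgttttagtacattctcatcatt

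Indole metabolism and its feeder pathway rose. In the tryptophan list 8 of 10 rose, and 6, 8, 6 and 7 with 1 library left out. TSA1, a subunit of tryptophan synthase, had 868 and 526 CPM at 4 h, against 48.8 and 64.0 CPM at 0 h (3.63 ± 0.35 SE, adjusted p = 0.000324), and ASA1, of the entry enzyme anthranilate synthase, had 450 and 262 CPM at 4 h, against 33.1 and 50.8 CPM at 0 h (3.09 ± 0.37 SE, adjusted p = 0.00078). All 16 genes tested of aliphatic glucosinolates had a positive log2 change and 5 were called, and 4, 3, 3 and 4 with 1 library left out. MYB28, their main regulator, had 31.0 and 35.1 CPM at 4 h, against 16.2 and 14.7 CPM at 0 h (1.09 ± 0.21 SE, adjusted p = 0.00678). Tau-class glutathione transferases had 9 higher and 4 lower of 26, and 8, 7, 6 and 8 higher and 1, 2, 1 and 2 lower with 1 library left out. GSTU24 had 311 and 511 CPM at 4 h, against 33.4 and 41.5 CPM at 0 h (3.46 ± 0.46 SE, adjusted p = 0.00137).

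Calls of hormone turnover genes are described here for the jasmonate turnover, gibberellin and brassinosteroid lists, the last 2 with 1 call each. Those single calls were 6.25% of gibberellin genes higher and 5.88% of brassinosteroid genes lower. Neither share was above the 10.1% higher and 6.56% lower over all loci. The auxin-conjugating GH3 enzymes gave 1 higher and 3 lower of 8 tested. Of 6 jasmonate turnover genes tested 3 rose, the same count with any 1 library left out. Among them IAR3, which cleaves hormone conjugates, had 104 and 111 CPM at 4 h, against 19.5 and 19.8 CPM at 0 h (2.45 ± 0.23 SE, adjusted p = 0.000323). Of 16 gibberellin genes GA2OX6, an inactivating oxidase, was called, with 27.8 and 30.6 CPM at 4 h, against 5.37 and 8.99 CPM at 0 h (2.04 ± 0.34 SE, adjusted p = 0.00387). Of 17 brassinosteroid genes BAS1, an inactivating hydroxylase, was called, with 1.89 and 1.85 CPM at 4 h, against 8.81 and 6.52 CPM at 0 h (-2.04 ± 0.36 SE, adjusted p = 0.00474). Aux/IAA repressors of auxin signalling had 6 lower and none higher of 22, and 1, 0, 2 and 2 lower with 1 library left out.

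Light-harvesting genes and clock genes varied within groups. All 21 light-harvesting genes tested had a negative log2 change, with a median of -1.19, yet 1 was called. Their summed level was 16992 and 5776 CPM at 4 h, against 24217 and 30821 CPM at 0 h, and 11 were called lower without the WT 4 h library of run 910. The number called lower was 19 with no low-count filter and 6 with DESeq2. Mesophyll markers had a summed level of 7038 and 3255 CPM at 4 h, against 8288 and 10737 CPM at 0 h, with no call among 6. Of 21 clock genes, RVE1 (-2.06 ± 0.59 SE) and RVE4 (-1.39 ± 0.37 SE) fell and none rose, both calls being lost without either WT 4 h library or the WT 0 h library of run 910 (edgeR adjusted p = 0.149, 0.193 and 0.284 for RVE1 and 0.0982, 0.175 and 0.194 for RVE4), and 1, 0, 0 and 3 fell and 0, 0, 0 and 2 rose with 1 library left out. With no low-count filter 7 fell and 6 rose, and with the 4 WT libraries alone 4 fell and 0 rose. The morning gene LHY had 1.78 and 1.72 CPM at 4 h, against 54.8 and 2.67 CPM at 0 h (-4.05 ± 1.42 SE, adjusted p = 0.0833). CCA1, its partner, had 5.77 and 0.529 CPM at 4 h, against 45.0 and 5.93 CPM at 0 h (-2.97 ± 1.17 SE, adjusted p = 0.117). The 0 h libraries of the 2 runs thus differed from each other in morning genes, and the part of time of day in the other results was not tested. No member was called by edgeR among 28 proteasome genes, 20 histones, 15 tubulins, 8 cellulose synthases, 12 auxin synthesis genes, 6 mesophyll, 6 vascular, 6 guard cell and 3 meristem markers, with medians between -0.68 and 0.54. At an unadjusted p under 0.05 these lists held 1, 3, 1, 2, 4, 0, 1, 1 and 0 genes in that order, and DESeq2 called 2 auxin synthesis genes and none of the others.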

How the data were processed

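Poly(A) RNA of the 8 libraries was made into Ion Total RNA-Seq libraries, per the labels' protocols. The authors deposited a table of 215 columns with, per the file headers, raw read counts per locus for total, unique, exon and intron gene reads, of which the total gene counts were the main measure. The RPKM values, pairwise EDGE p-values and signed linear fold values (treated as a score) deposited by the authors, and the exon length column (other), are not reported here. TAIR10 is the build named in the submitters' processing notes. No source used here gives the aligner or the strand of counting, so overlapping and antisense loci are uncertain, and Landsberg erecta reads were placed on the reference build.

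Counts were tested with edgeR 4.0.16 (R 4.3.3) with TMM scaling, filterByExpr and 1 coefficient per group over 8 libraries (4 residual degrees of freedom), contrasting WT 4 h with WT 0 h at a Benjamini-Hochberg adjusted p of 0.05. The method was tested on simulated data. CPM was computed on TMM-scaled reads of tested loci. The members of 112 lists, and the comparison itself, were chosen with earlier results of these data known, and the VQ, mTERF, mitochondrial carrier, polyketide cyclase, S-locus, purple acid phosphatase, ribosome biogenesis, lipid transfer, pentatricopeptide, thalianol and O-acetylserine lists after values were seen. Genes named are the 10 largest changes in each direction with at least 5 CPM and a symbol, and up to 4 called members per direction of each list (any member of a list of under 30). Others named with their levels are marked as chosen after their values were seen, or belong to an array picked out then. Some genes named without levels, such as APR1, APR2, FIB1 and FIB2, lie outside this rule and carry no mark. With 2 libraries per group, SE and p-values rest on the spread between these replicates pooled over the 4 groups, with edgeR sharing information across loci. SE was computed as the size of the log2 change divided by the square root of the F statistic of the test. Alternatives tried were RLE scaling, no low-count filter, the 4 WT libraries alone, the run number as a block, DESeq2 1.42.0, unique reads, exon reads, ribosomal and organelle loci left out, a test against a fold of 1.5 and leaving out each WT library. Promoters came from RefSeq TAIR10.1, where 27996 loci of the table overlapped a gene on the same chromosome and strand. Of these, 6029 had the same start and end. The window searched was thus set by the RefSeq start and need not begin at the start of the locus as counted.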

Additional observations from a re-analysis of the deposited data

How the results depend on the processing

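Against 1989 loci called higher and 1289 lower, the test against a fold of 1.5 called 993 higher and 544 lower. The fit with no low-count filter tested 26915 loci and called 2117 lower. Loci tested in both fits also gained calls, with 19 of 21 light-harvesting genes called lower against 1 in the main fit. Leaving out 1 WT library gave 884 to 1252 higher and 468 to 839 lower, with one fewer sample in the fit. The other settings tried gave counts within 1.5 times. None of the 13 settings changed the direction of any of the 3278 called loci that it tested, and no scaling moved the median of all loci by more than 0.02. The share of calls that were higher was 60.7%, and 70.2% without the WT 4 h library of run 918. Of 532 called genes covered by the naming rule, 525 kept the call with RLE size factors, 509 with the 4 WT libraries alone, 504 with DESeq2 and 339 in the test against a fold of 1.5. With the run as a replicate block 2369 loci were higher and 1701 lower, and all 532 named calls were kept. Within that fit the clock list had 3 higher and 7 lower, the B-box list 3 and 10, the light-harvesting list 0 and 6, the ribosomal proteins 73 and 2, the phosphate list 1 and 12, the trehalose list 1 and 4, the alternative respiration list 6 and 1, the root markers 0 and 2, the gibberellin list 2 and 1 and the brassinosteroid list 0 and 2. Same-run deviations correlated at 0.098 between the WT groups over 2 pairs, at 0.129 between the 4 h groups, 0.135 between the smn2 groups and 0.452 between the 0 h groups. The share of ribosomal RNA and organelle reads was 28.9% to 37.8% in run 910 and 43.6% to 47.6% in run 918. Whether a run number also marks plants grown together is not given, so the block was kept as an alternative. With no low-count filter, more members were lower in the bHLH (18), lipid-transfer (24), MATE (8), NAC (11) and sugar carrier (8) lists, and the trehalose list had 2 higher. Depth of 8635658 to 15791296 gene reads per WT library limits genes under about 1 CPM, where a few reads set the size of a change.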
